A study of Arabidopsis thaliana with 24 samples.

Results

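At the start of the labeling experiment 288 of 22746 Arabidopsis probe sets gave at least 2 times as much total RNA signal in seedlings kept at 27°C as in seedlings kept at 17°C, and by the end of labeling the difference had closed. These probe sets, called members below, were chosen by measured values: from the mean of 3 arrays per group, a ratio of 27°C to 17°C of at least 2 at time 0, a ratio between 0.667 and 1.5 at the end, and a mean of at least 200 in 1 or more of the 4 groups of total RNA. The last condition alone was met by 11669 probe sets, which serve as the background below. A single gene is named for 163 members, several genes for 3 and none for 122, and the members without a gene name stay in all counts.

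The seedlings, whole plants of the ecotype Columbia, had 3 days at 22°C to germinate and then 7 days on MS agar at 17°C or 27°C, with 12 h of light and 12 h of dark. They were moved to liquid MS medium 12 h before time 0, shortly after dawn, and were 10 days old by the sample labels, while the methods give a higher age. Total RNA at time 0 came from seedlings without label. The other seedlings received 4-thiouracil (4SU), a base analog that is built into new RNA, at 1.5 mM by the labels, although the methods state that the concentration differed between conditions. They were frozen after 2 h at 17°C and after 1 h at 27°C, and the RNA was hybridized as total RNA and, after biotinylation and a streptavidin column, as a labeled, newly synthesized fraction (NS) and an unlabeled, pre-existing fraction (PE). Each of the 8 groups has 3 biological replicates on 1 array each. Time 0 and the end thus differ in time after dawn and in 4SU, and the ends of the 2 temperatures differ in hours after dawn, so that these cannot be told apart here.

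The level of a transcript is set by how fast it is made and how fast it is degraded, and a transcript that turns over quickly follows a change in its synthesis quickly. Dawn is a time at which the circadian clock, the end of the night and the first light all act on transcript levels in seedlings, among them those of growth, hormone and clock genes. Warmth within the ambient range makes seedlings elongate, a response that runs through PIF transcription factors, auxin and enzymes that loosen the cell wall. Labeling separates transcripts made during a short window from those that were already there.

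The values are MAS5 signals, an Affymetrix summary of each probe set's brightness that is not logarithmic, and the trimmed mean was the same on every array to within rounding. No array therefore records how much RNA a fraction held, and the level of one probe set is not set against that of another here. Log2 signals of replicates correlated with a Pearson's r of 0.957 to 0.983. Of 15 markers of green tissue 2 had a named probe set, RCA and LHCB4.1, with a summed signal of 25080 to 37800 on the total RNA arrays, and of 10 root markers only EXPA7, with 129 to 221. In RNA of whole seedlings, fewer cells of a type and less RNA per cell cannot be told apart.

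The ratio at time 0 lay between 2 and 3 for 223 members, between 3 and 5 for 51 and at 5 or more for 14, with a median of 2.37. The median signal at time 0 was 643 at 27°C and 253 at 17°C. At the end the medians were 333 and 290, and the median of the ratios was 1.14. All 3 arrays at 27°C lay above all 3 at 17°C at time 0 for 284 members, against 26.7% of the background probe sets, a count that the choice of members fixes. The 4 members whose arrays overlapped were AT3G22060, AT2G44370, AT5G61890 and AT3G21080. The limit of 2 cuts a continuous range. Just inside it lay AT4G20930 with a ratio of 2.001 and AT5G44060 with 2.004, and just outside it AT1G72070 and AT3G57770 with 1.996 each and RABA2D with 1.995. Near the upper limit of 1.5 at the end, AT1G11930 was inside with 1.499, and AT3G26100 with 1.503 and OASA2 with 1.512 were outside.

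**Figure D1:**
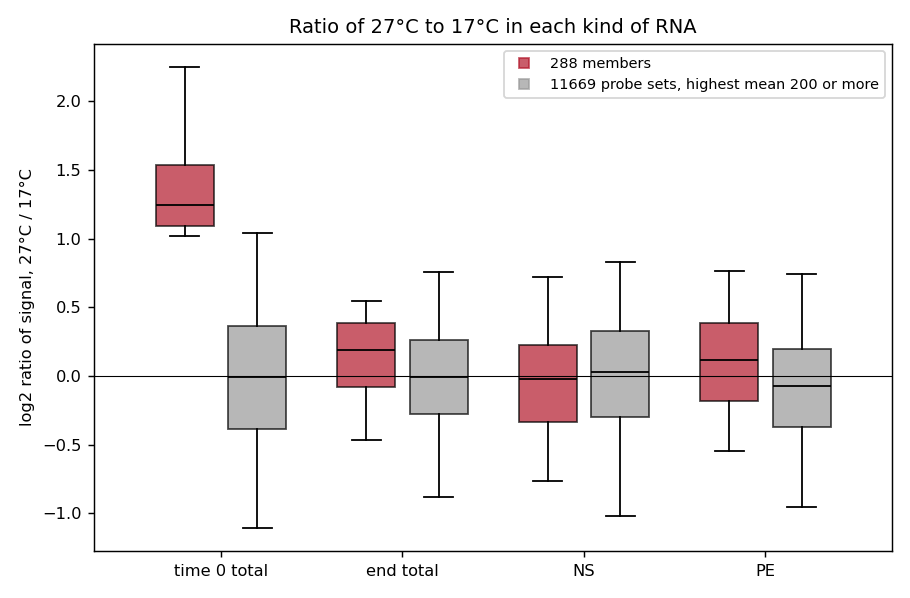
Log2 ratio of the signal at 27°C to that at 17°C for the 288 members and for the 11669 background probe sets in total RNA at time 0 and at the end, in NS and in PE (box, middle 50%; line, median; whiskers, 5th and 95th percentiles). The total RNA boxes of the members follow from how they were chosen, and in NS and PE the members have medians of -0.02 and 0.11.

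Among the members as chosen, a decrease at 27°C was more frequent than an increase at 17°C. The signal after 1 h at 27°C was at least 1.5-fold below that at time 0 for 206 members (71.5%, against 18.1% of the background probe sets), within 1.5-fold for 68 and at least 1.5-fold above it for 14. After 2 h at 17°C it was at least 1.5-fold higher for 86 members (29.9%, background 9.93%), within 1.5-fold for 155 and at least 1.5-fold lower for 47. The median change was a ratio of end to time 0 of 0.511 at 27°C and of 1.14 at 17°C. Probe sets at least 2-fold lower at 27°C at time 0 only also moved mainly at 27°C, with median changes of 1.90 there and 1.01 at 17°C. For 210 members the decrease at 27°C was larger on the log2 scale than the increase at 17°C. These include the 112 members whose signal was lower at the end at both temperatures by any amount. Those 112 enter the count whatever the sizes of their changes, so that nothing is read from it. No test was made on these changes, since the arrays of total RNA chose the members. By the rule itself, the ratio of end to time 0 is lower at 27°C than at 17°C for every member.

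Combining both temperatures, 133 members were lower at 27°C and within 1.5-fold at 17°C, 26 were lower at 27°C and higher at 17°C, 47 were lower at both, 46 were within 1.5-fold at 27°C and higher at 17°C, 14 were higher at both and 22 were within 1.5-fold at both. All 3 end arrays at 27°C lay below all 3 time 0 arrays for 220 members, against 28.9% of the background probe sets. At 17°C, all 3 end arrays lay above all 3 time 0 arrays for 107 members, against 17.9%. As the total RNA arrays entered the choice, nothing is read from these counts. The members that were lower at both temperatures had changes of 0.245 at 27°C and 0.552 at 17°C in the median, and those that were higher at both had 1.93 and 4.57.

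**Figure D2:**
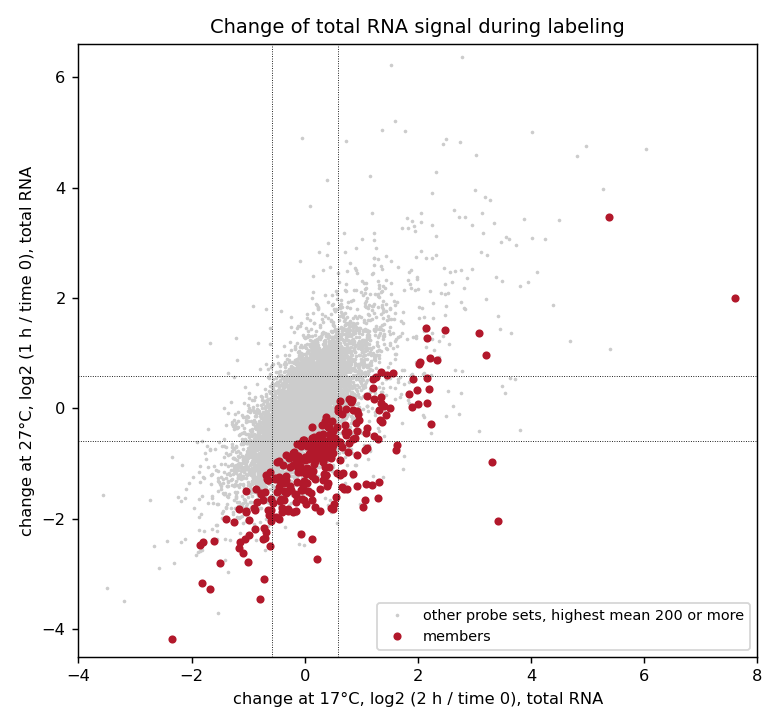
Change of total RNA signal during labeling at 17°C (horizontal axis, log2 of 2 h over time 0) and at 27°C (vertical axis, log2 of 1 h over time 0), for the members (red) and the other background probe sets (grey), with dotted lines at 1.5-fold. The members lie below the main cloud by the way they were chosen, and most of them (206 of 288) are under the lower dotted line at 27°C.

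GIGANTEA (GI, AT1G22770), a clock gene that also acts in the photoperiod control of flowering, was barely measured at time 0 at 17°C. Its signal on the 3 time 0 arrays at 17°C was 2.37, 5.73 and 1.74, and at 27°C it was 143, 157 and 192. The values at 17°C are too low for a ratio at time 0 to have a meaningful size, so none is given and GI is not ranked. After 2 h at 17°C the arrays gave 531, 734 and 645, and after 1 h at 27°C 610, 723 and 645. GI thus was higher at the end than at time 0 at both temperatures, with no overlap of arrays, and reached the same range from different starting levels.

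The newly synthesized RNA of GI also had like levels at both temperatures, 1407, 1613 and 1259 at 17°C and 1307, 1413 and 1248 at 27°C. Their log2 difference was -0.10 ± 0.14 (SE, adjusted p = 0.71, limma). On the log2 scale NS was 1.59 ± 0.14 above PE at 17°C (adjusted p = 1.0e-07) and 1.29 ± 0.14 above it at 27°C (adjusted p = 1.3e-06). Among the clock genes listed, 8 of 26 had a named probe set, and GI was the only member. Of these 8, 5 were called higher in NS than in PE at 17°C and 5 at 27°C, where 33.6% and 35.8% of the background probe sets were, and RVE1 and TCP21 were lower in NS at 27°C than at 17°C, with no call in PE. RVE1, a Myb-like factor tied to the clock, had its time 0 signal in the other direction, with a mean of 1486 at 27°C and 2914 at 17°C. TOC1, a core clock gene, had 545 and 320 at time 0, a ratio of 1.70 that stayed under the limit.

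CCL (AT3G26740), whose transcript is known to be unstable under control of the clock, had time 0 signals of 1850, 1988 and 1594 at 27°C, all above the 548, 528 and 734 at 17°C. At the end its arrays overlapped, with 1689, 1098 and 1481 at 27°C and 1028, 1289 and 1553 at 17°C. For CCL the difference closed from the 17°C side, where the mean signal was 2.14 times that at time 0, against 0.786 at 27°C.

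**Figure D3:**
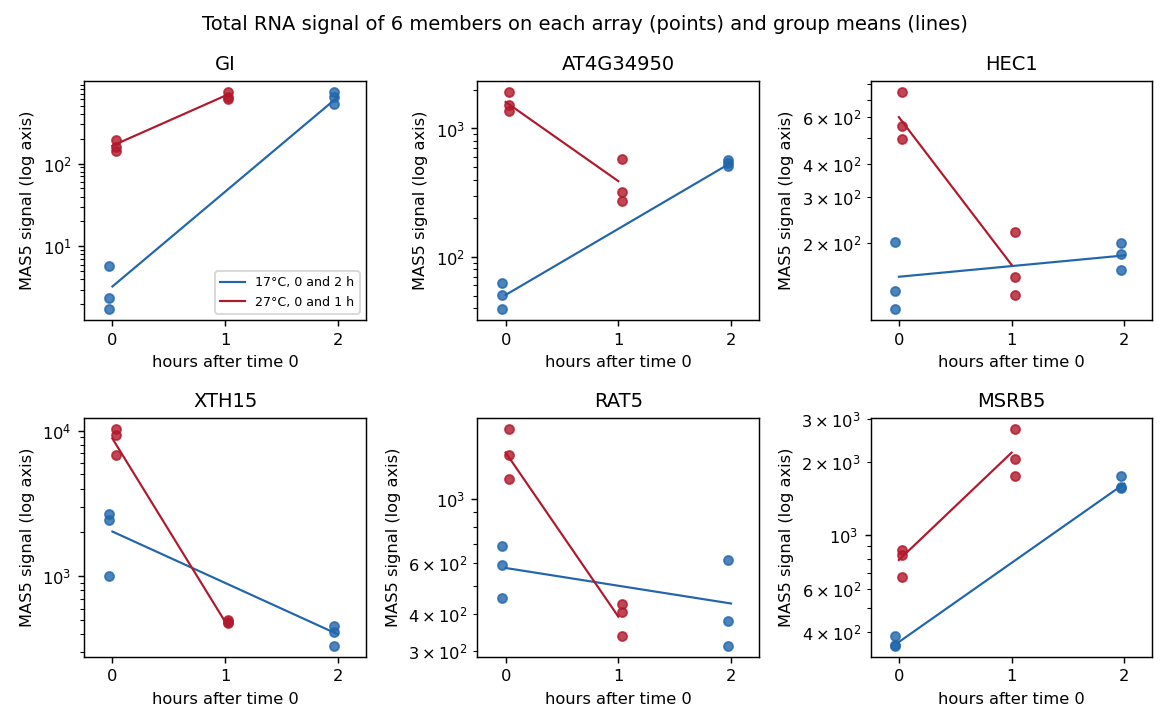
Total RNA signal on each array (points, logarithmic axis) against hours after time 0 for 6 members at 17°C (blue) and 27°C (red), with lines joining the group means of 3. GI and MSRB5 go up at both temperatures, AT4G34950 comes from both sides, HEC1 and the histone gene RAT5 close by a drop at 27°C, and XTH15 goes down at both.

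AT4G34950, which the annotation used here names by its locus only, had a ratio of 31.8 at time 0 and closed from both sides. Its arrays gave 62.2, 39.1 and 50.4 at time 0 and 507, 573 and 543 after 2 h at 17°C, a mean 10.7 times higher. At 27°C they gave 1525, 1927 and 1374 at time 0 and 275, 574 and 317 after 1 h, a 4.14-fold decrease of the mean. Its NS signal was lower at 27°C than at 17°C (453, 791 and 426 against 1110, 1671 and 1347), a log2 difference of -1.34 ± 0.32 (SE, adjusted p = 0.0078). The direction held in every alternative fit, but the call was lost without a trend (limma, adjusted p = 0.066). It was also lost when any 1 replicate other than 27°C replicate 2 was left out. Ratios at time 0 of 8.07 for AT1G44830, 6.79 for AT1G08230 and 6.65 for AT2G17740 were also large, and that of AT3G09480 (8.83) rests on a mean at 17°C of 37.3.

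The growth-related members were led by XTH15 (AT4G14130), a xyloglucan endotransglucosylase/hydrolase that remodels the cell wall. At time 0 its signals were 9335, 10330 and 6816 at 27°C, all above the 2661, 2425 and 996 at 17°C. After labeling they had come down to 481, 497 and 484 at 27°C, with 332, 454 and 412 at 17°C. This 18.1-fold decrease within 1 h was the largest of the 288 members at 27°C, and the mean at 17°C was lower at the end as well, by a factor of 5.08. In neither fraction did XTH15 differ by temperature beyond the threshold, with log2 differences of 0.36 ± 0.18 in NS (SE, adjusted p = 0.20) and 0.47 ± 0.18 in PE (adjusted p = 0.096).

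EXO (AT4G08950), EXORDIUM, which promotes cell expansion downstream of brassinosteroids, showed the same course. Its time 0 signals were 8173, 6237 and 7787 at 27°C, against 3124, 2793 and 2454 at 17°C, and its end signals 1679, 1601 and 856 and 1140, 1306 and 1341. EXO transcripts were higher in NS than in PE at both temperatures, with log2 differences of 0.99 ± 0.27 and 1.17 ± 0.27 (adjusted p = 0.0056 and 0.0016). The expansin-like gene EXLA1 (AT3G45970) went from 588 to 253 at 27°C and from 195 to 213 at 17°C (means of 3). AT2G26440, a pectin methylesterase gene (PME12), went from 855 to 258 and from 170 to 174. These genes were picked after their values were seen, and the list of 22 cell wall loosening genes, of which 8 had a named probe set, held no member. Ratios of 27°C to 17°C at time 0 of these 8 ran from 0.0571 (EXPA8) to 1.67 (XTH18). The others had 0.0935 (XTH19), 0.498 (EXPA4), 0.626 (EXPA15), 0.913 (XTH33), 1.01 (XTH30) and 1.28 (XTH16).

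Of 19 genes of the PIF pathway listed, 5 had a named probe set, and XTH15 and ST2A were members. Both ST2A and its paralog ST2B were lower in NS at 27°C than at 17°C, and no gene of the 5 was called higher there. None of the 5 was called in PE between temperatures. ST2B had a ratio of 1.02 at time 0 and was no member. The 15 further lists gave no member, which says little, since most of their genes have no named probe set (none of 8 for nitrate and sulfate and 1 of 17 for abscisic acid, for example) and the 122 members without a gene name could match no list.

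Cytokinin signaling gave a pair of members, both A-type response regulators, which restrain the cytokinin response. ARR6 (AT5G62920) had time 0 signals of 1680, 1059 and 1192 at 27°C and 556, 558 and 518 at 17°C, and end signals of 320, 266 and 359 and 243, 177 and 269. Its NS signal was 563, 351 and 425 at 27°C and 134, 177 and 233 at 17°C, higher at 27°C without overlap. The log2 difference of 1.31 ± 0.25 (SE, adjusted p = 0.0017) was the largest of any member in that direction. RR16 (AT2G40670) gave 496, 240 and 464 at time 0 at 27°C and 63.1, 84.2 and 50.02 at 17°C, and ended at 120, 107 and 122 and at 136, 139 and 126. Its NS levels did not pass the test between temperatures, with a log2 difference of 0.11 ± 0.26 (adjusted p = 0.85).

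Auxin-related members, picked after their values were seen, closed in different ways. IAGLU (AT4G15550), an enzyme that joins glucose to auxin, gave 4276, 4292 and 4897 at time 0 at 27°C and 2064, 1902 and 1995 at 17°C. At the end it stood at 4234, 3995 and 3438 and at 5042, 5089 and 4914, so that the mean at 17°C was 2.52 times higher than at time 0. IAGLU was the only member lower at 27°C in both fractions, by log2 differences of -0.70 ± 0.15 in NS and -0.66 ± 0.15 in PE (SE, adjusted p = 0.0046 and 0.0078). SAUR57 (AT3G53250), of the small auxin-up RNA family, had low signals that were higher at the end at both temperatures (81.0, 160 and 127 to 323, 110 and 240 at 27°C, and 59.2, 18.7 and 18.0 to 151, 192 and 141 at 17°C), and its arrays at 27°C overlapped. SAUR36 (AT2G45210) went the other way, from 1335 to 349 at 27°C and from 557 to 361 at 17°C (means of 3). Of 25 early auxin response genes listed, 7 had a named probe set, and none was a member. Ratios of 27°C to 17°C at time 0 were 0.589 (GH3.6), 0.744 (IAA14), 0.786 (IAA4), 0.796 (GH3.5) and 0.915 (GH3.3). GH3.1 (0.572) and IAA20 (6.475) had signals too low for a ratio of meaningful size. SLY1 (AT4G24210), the F-box protein of gibberellin signaling, went from 1091 to 751 at 27°C and from 506 to 734 at 17°C.

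Several members encode transcription factors, and those described here were picked after their values were seen. HEC1 (AT5G67060), a bHLH factor of carpel and meristem development, gave 497, 555 and 748 at time 0 and 221, 148 and 127 at the end at 27°C. At 17°C it gave 203, 112 and 132 and then 199, 181 and 158, with overlap. SPT (AT4G36930), a bHLH partner of the HECATE factors that restrains the growth of cotyledons and leaves, had 431, 369 and 461 at time 0 and 199, 161 and 95.3 at the end at 27°C, and stayed between 92.9 and 119 on the 6 arrays at 17°C. WRKY26 (AT5G07100), a factor of heat tolerance, was lower at both temperatures, by a factor of 5.76 at 27°C (1036, 799 and 1164 to 203, 174 and 143) and of 2.22 at 17°C.

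High levels in NS relative to PE were measured for AT5G58900, a Myb factor, with 2.37 ± 0.20 at 17°C and 2.00 ± 0.20 at 27°C on the log2 scale (SE, adjusted p = 4.3e-08 and 3.4e-07), and MYB16 (AT5G15310), which shapes epidermal cells and the cuticle, with 2.14 ± 0.28 and 2.52 ± 0.28 (adjusted p = 7.9e-06 and 1.4e-06). The NS arrays of MYB16 gave 322, 327 and 251 at 17°C, and at 27°C 299, 287 and 323, and its PE arrays 51.4, 65.3 and 92.0 and 69.0, 42.3 and 49.98. These PE signals are low, so that the size of the NS excess of MYB16 is uncertain. GBF1 (AT4G36730), a bZIP factor that binds G-boxes, was on the other side, with -0.30 ± 0.15 and -0.38 ± 0.15 (adjusted p = 0.11 and 0.045), which is not below the threshold of 0.01. Rap2.6L (AT5G13330), an ERF factor, was lower in NS at 27°C than at 17°C (log2 difference -0.82 ± 0.18, adjusted p = 0.0049).

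Histone and other chromatin genes were among the members too, again picked here with their values known. RAT5 (AT5G54640), which encodes histone H2A, gave 1417, 1173 and 1748 at time 0 and 407, 436 and 336 at the end at 27°C, and 593, 456 and 686 and then 312, 618 and 379 at 17°C. The histone H2B gene HTB2 (AT5G22880) gave 1105, 867 and 1085 and then 568, 419 and 350 at 27°C. At 17°C the arrays of RAT5 and HTB2 overlapped between time 0 and the end. HTB4, another H2B gene, had a smaller decrease at 27°C, with a ratio of end to time 0 of 0.685, and one of 1.14 at 17°C. INO80 (AT3G57300), the ATPase of a chromatin remodeling complex, went from 789 to 413 at 27°C, and OBE1, a PHD finger protein of meristems, from 1176 to 373. At 17°C the arrays of INO80 overlapped between time 0 and the end. Those of OBE1 were lower at the end there too, from 454.5, 550.5 and 516.7 to 343.1, 276.1 and 289.3.

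The transporter genes CAT2, OPT1, PTR3 and CAX7 were picked after their values were seen. They carry cationic amino acids, oligopeptides, peptides and cations. At 27°C their signals were lower at the end, by factors of 2.87, 4.098, 4.01 and 2.65. At 17°C CAT2 was lower as well, from 2008, 2039 and 2039 to 1232, 1074 and 1419. CAX7 was higher there, from 304.7, 298.3 and 347.6 to 402.5, 452.2 and 393.4, and the arrays of OPT1 and PTR3 overlapped. CAX7 (AT5G17860) had the largest NS excess of a named member at 17°C, with NS arrays of 1516, 1445 and 1301 and PE arrays of 227, 256 and 231 (log2 difference 2.58 ± 0.20, SE, adjusted p = 1.7e-08). At 27°C its NS arrays were lower, at 1067, 618 and 774 (log2 difference -0.83 ± 0.20, adjusted p = 0.0081). MGL, a methionine gamma-lyase, went from 2754 to 1244 at 27°C and from 900 to 858 at 17°C, and was lower in NS than in PE at 27°C (-1.30 ± 0.21, adjusted p = 7.3e-05). UBC29, a ubiquitin-conjugating enzyme, stood at 931 and 904 at 27°C and at 458 and 690 at 17°C, and was lower in NS than in PE at 27°C too (-0.60 ± 0.15, adjusted p = 0.0030).

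The 14 members that were at least 1.5-fold higher at the end at both temperatures include GI, SAUR57 and MSRB5. MSRB5 (AT4G04830), a methionine sulfoxide reductase that repairs oxidized proteins, gave 351, 355 and 387 at time 0 and 1551, 1738 and 1576 at the end at 17°C, and 675, 867 and 829 and then 1740, 2056 and 2728 at 27°C. Its PE signal was higher at 27°C (2559, 1914 and 2285 against 1265, 1345 and 1421), a log2 difference of 0.74 ± 0.14 (SE, adjusted p = 0.0022). In NS it was 0.28 ± 0.14 (adjusted p = 0.22). Among these 14, a subset set by the total RNA that also chose the members, NS was called higher than PE in 14 at 17°C and in 13 at 27°C, where 33.6% and 35.8% of the background probe sets were called.

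The choice of members did not use the ratio of NS to PE at one temperature, but it is not independent of that ratio. NS and PE were split from the end RNA that entered the rule. The rule also asks for a difference that closed within 1 to 2 h, which may favor transcripts that turn over quickly. The background was not matched for level at the end. Its median total RNA signals were 551 at 17°C and 546 at 27°C, against 290 and 333 for the members. How much of the differences below follows from the choice was not tested. At 17°C, 158 members (54.9%) were called higher in NS than in PE, against 33.6% of the background probe sets, and 12 (4.17%) lower, against 23.2% (limma on the 12 NS and PE arrays, adjusted p under 0.01 and fold above 1.5). At 27°C, 152 members (52.8%) were higher, against 35.8%, and 21 (7.29%) lower, against 19.1%. At both temperatures 136 members were called higher in NS, 47.2% against 29.0% of the background. The median log2 difference was 0.92 at 17°C and 0.88 at 27°C for the members, and 0.23 and 0.32 for the background. Because each array carries the same mean, these are levels relative to the other transcripts of the fraction and not amounts.

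Probe sets that were at least 2-fold higher at 27°C at both times (200) had 29.5% called higher in NS at 17°C and 31.0% at 27°C. Probe sets with the opposite course, at least 2-fold lower at 27°C at time 0 only (270), had 33.7% and 47.4%. Members that were lower at 27°C and higher at 17°C had 21 of 26 called at 17°C and 18 at 27°C, and those that were lower at both had 17 of 47 at each. The difference between these sets of probe sets was not tested.

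**Figure D4:**
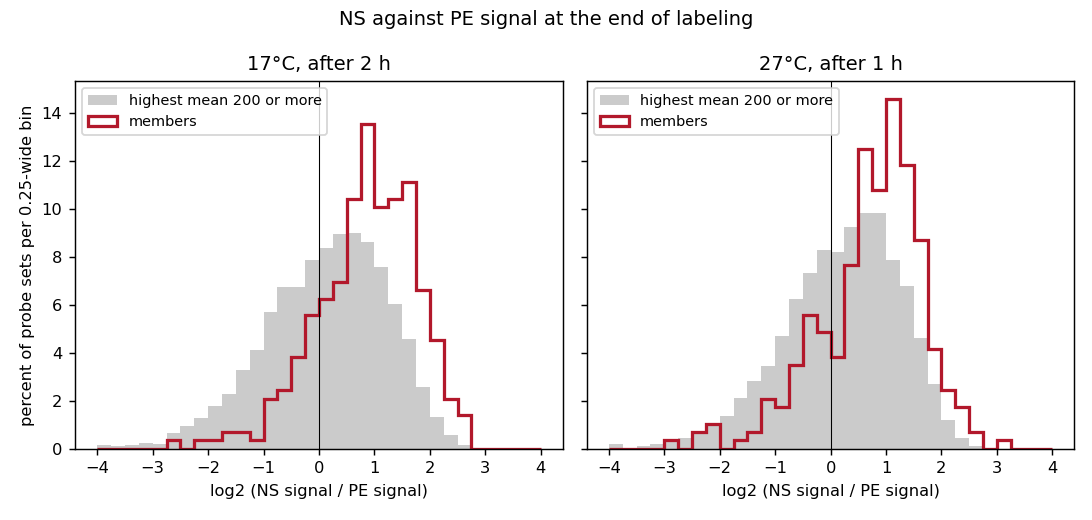
Distribution of the log2 ratio of NS to PE signal at the end of labeling at 17°C and at 27°C for the members (red line) and the background probe sets (grey), as the percent of each set in each bin. The members are shifted to higher values, with medians of 0.92 and 0.88 against 0.23 and 0.32.

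Some members were depleted in NS. AT1G19530 had the lowest log2 difference of those with a gene name, -2.53 ± 0.16 at 17°C and -2.94 ± 0.16 at 27°C (SE, adjusted p = 2.7e-09 and 9.6e-10). AT1G11930 had -1.70 ± 0.14 and -2.02 ± 0.14 (adjusted p = 4.8e-08 and 1.1e-08). At the other end, AT1G49200 and AT5G53750 combined high NS with large decreases of total RNA. AT1G49200 gave 3413, 2908 and 4701 at time 0 and 516, 308 and 411 at the end at 27°C, and its NS exceeded PE by 2.13 ± 0.28 there (adjusted p = 8.7e-06). The corresponding arrays of AT5G53750 gave 1083, 627 and 1447 and then 125, 66.6 and 133, with an NS excess of 1.89 ± 0.36 (adjusted p = 3.2e-04).

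Scaled to total RNA with the correction factors of the methods, the new RNA was 23.3% ± 0.638 of the end signal at 17°C and 34.2% ± 0.261 at 27°C in the median member (SD of the medians of 3 replicates). The background had 15.6% ± 0.144 and 26.1% ± 0.0367. The new share of MYB16 was 41.4% ± 10.1 at 17°C and 62.0% ± 5.90 at 27°C, and that of HEC1 37.3% ± 6.09 and 53.2% ± 2.53. That of XTH15 was below the median, 11.9% ± 1.12 and 18.4% ± 2.27. The PE signals of MYB16 are low, so that the size of its share is uncertain. Labeling lasted 2 h at 17°C and 1 h at 27°C, so that the shares of the 2 temperatures cover unlike times. The shares rest on 1 regression line per temperature, and their SDs leave out the uncertainty of that line. With 1 line per replicate the medians of the members were 18.16% at 17°C and 27.0% at 27°C.

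Set against the signal at time 0, the scaled pre-existing RNA that remained was a median of 31.9% ± 0.667 after 1 h at 27°C for the members and 72.0% ± 0.507 for the background. After 2 h at 17°C it was 81.3% ± 4.39 and 81.3% ± 0.518. New RNA amounted to 14.9% ± 0.663 of the time 0 signal at 27°C for the members, against 22.7% ± 0.248, and to 24.1% ± 1.68 at 17°C, against 13.9% ± 0.164. The time 0 signal that chose the members stands in the denominator of all these values, so that a low remainder at 27°C and a higher one at 17°C follow in part from the choice. The remainder at 27°C was under 50% of time 0 for 224 members (77.8%, background 25.8%) and at 17°C for 46 (16.0%, background 10.1%).

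For XTH15 5.02% ± 0.916 of the time 0 signal remained at 27°C and 17.3% ± 2.36 at 17°C, for AT1G49200 4.98% ± 2.22 and 12.4% ± 2.45, and for EXO 10.4% ± 3.40 and 33.3% ± 1.55. For HEC1 the values were 10.2% ± 3.62 and 74.3% ± 13.2. The scaled pre-existing signal was above that at time 0 in 99 members at 17°C (34.4%, background 23.2%), and in 10 at 27°C (3.47%). In the background this held for 2757 of 11669 probe sets at 27°C. Both member counts follow in part from the choice by the time 0 signal. GI and MSRB5 were among these members at both temperatures. For members with such a signal the unlabeled fraction is no measure of what was left of the earlier RNA.

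Between temperatures, few members differed in either fraction, and their levels there are not free, since NS and PE were split from the RNA whose end ratio was held between 0.667 and 1.5. In NS, 10 members (3.47%) were called higher at 27°C, against 7.49% of the background, and 15 (5.21%) lower, against 6.72%. In PE, 8 (2.78%) were higher, against 4.46%, and 1 (0.347%) lower, against 6.62%. The median log2 differences were -0.02 in NS and 0.11 in PE. Leaving out 17°C replicate 2 took the 25 calls in NS to 10, leaving out 17°C replicate 3 to 15, and leaving out 27°C replicate 1 or 3 to 12. The 9 calls in PE went to 4 when 17°C replicate 2 or 27°C replicate 3 was left out, and to 3 for 17°C replicate 3 or 27°C replicate 1.

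Of the members with a gene name, ARR6, AT1G30260, AT2G41410 and AT2G41120 were higher in NS at 27°C, with log2 differences from 0.67 to 1.31. Lower in NS were ST2A (-1.41), AT4G34950 (-1.34), AT1G21680 (-1.28), AT3G62550 (-0.91), XYL4 (-0.90), CAX7 (-0.83), Rap2.6L (-0.82), AT5G02480 (-0.75), IAGLU (-0.70) and AT2G39950 (-0.68). AT1G21680 had NS arrays of 8910, 7375 and 9368 at 17°C and 3858, 3359 and 3348 at 27°C. Higher in PE at 27°C were AT4G15660 (1.25), AT2G29310 (0.90), AT5G45410 (0.77), MSRB5 (0.74), AT1G11930 (0.67) and XYL4 (0.62). AT4G15660, a glutaredoxin family gene, had PE arrays of 428, 403 and 482 at 27°C and 184, 209 and 162 at 17°C.

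The ratio of NS to PE differed between temperatures for 2 members, both lower at 27°C (0.694%, against 0.12% of the background). No member was called higher, against 0.129% of the background. At an unadjusted limma p under 0.05, 10 members were higher (3.47%, background 13.5%) and 27 lower (9.38%, background 5.76%). With the replicate number as a block, which pairs the NS and PE arrays split from one RNA, 6 members were called lower and 0 higher. The background share was not counted for that fit. ST2A (AT5G07010), a sulfotransferase that inactivates a jasmonate, had NS arrays of 386, 333 and 294 at 17°C and 126, 134 and 120 at 27°C. Its PE arrays were 644, 338 and 327 and then 622, 731 and 728. The log2 ratio of NS to PE went from -0.30 ± 0.22 to -2.45 ± 0.22, a difference of -2.15 ± 0.31 (SE, adjusted p = 0.0049). The new share of ST2A was 11.6% ± 2.54 at 17°C and 4.96% ± 0.487 at 27°C, while the background median was higher at 27°C.

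XYL4 (AT5G64570), a beta-xylosidase of the cell wall, had NS arrays of 3718, 3910 and 3971 at 17°C and 2345, 2257 and 1681 at 27°C, and PE arrays of 1321, 1229 and 1393 and 2171, 1948 and 1925. Neither fraction overlapped between temperatures, and they moved in opposite directions. The log2 ratio of NS to PE went from 1.56 ± 0.13 to 0.04 ± 0.13, a difference of -1.52 ± 0.18 (SE, adjusted p = 0.0023). The block added AT4G15660, AT1G21680, AT4G16190 and 1 unnamed member, with differences of -1.39, -1.05, -0.92 and -0.9958. Both calls were lost when 17°C replicate 2 or 3 or any 1 replicate at 27°C was left out, with ST2A between -2.01 and -2.22 and XYL4 between -1.40 and -1.60.

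**Figure D5:**
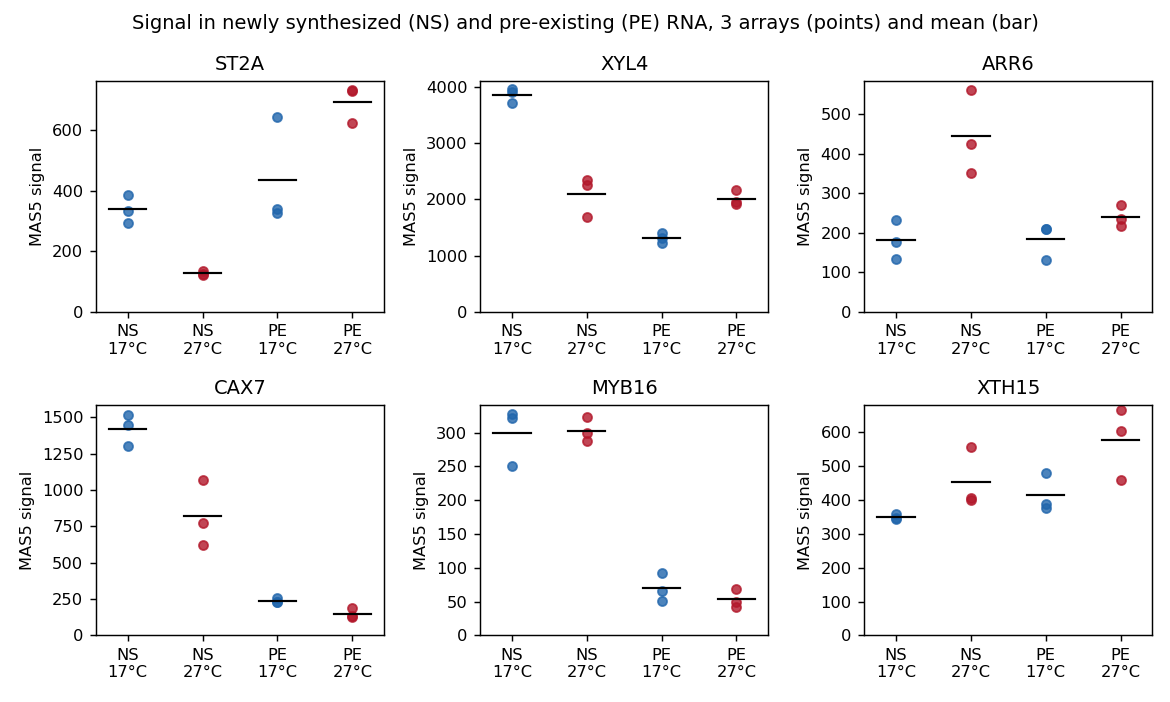
Signal in NS and PE RNA at the end of labeling at 17°C (blue) and 27°C (red) for 6 members, with 3 arrays as points and their mean as a bar on an axis from 0. ST2A and XYL4 are lower in NS at 27°C, XYL4 is higher in PE there while the PE arrays of ST2A overlap, ARR6 is higher in NS, and MYB16 has far more signal in NS than in PE at both temperatures.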

How the data were processed

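Members and lists were chosen with earlier results of these data known. The intensities were deposited by the authors as MAS5 signals of ATH1 arrays, scaled to a common trimmed mean. The MAS5 version is not stated there. Of 22810 probe sets 64 controls were left out. Depth does not apply to arrays, and the 3 replicates per group limit the precision. No 2 arrays held identical values.

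The 12 NS and PE arrays (log2 signal, no filter on low values) were fitted in 4 groups with limma 3.58.1 (lmFit, eBayes with a trend, R 4.3.3), with Benjamini-Hochberg adjustment over 22746 probe sets. A call needed an adjusted p under 0.01 and a fold above 1.5. Each p sets a difference against the spread between biological replicates within the 4 groups, moderated by eBayes over all probe sets. This fit does not pair the NS and PE arrays split from one RNA. The fit was tested on simulated data. Of the members, 271 had 50 or more on all 12 total RNA arrays.

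For shares, PE/T was regressed on NS/T, with T the total RNA at the end, over the 12906 probe sets at 50 or more on all 12 total RNA arrays, with ratios averaged over replicates. The factors were 0.135 (NS) and 0.847 (PE) at 17°C and 0.219 and 0.769 at 27°C. The remainder is scaled PE over the mean time 0 signal.

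Gene names come from the platform annotation (139 members) and from the locus column of a supplementary table (24), with symbols of RefSeq. The named genes are members with 1 locus: the 10 highest ratios at time 0, the 5 largest decreases at 27°C and increases at 17°C, those nearest the limits, the 5 largest calls in each direction, and members on 17 lists. Genes described by role, and further genes named as extremes, were chosen after their values were seen.

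Replicate numbers pair NS, PE and end total RNA arrays, which were split from one RNA by the design. Deviations from group means correlated at 0.171 to 0.522 for equal numbers and at -0.456 to 0.178 for others.

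Alternatives were quantile normalization, eBayes without a trend, a filter, an offset of 32, an adjusted p under 0.05 with no fold limit, the replicate block, all 24 arrays in one fit, each replicate left out, other limits of the rule, and other regression lines.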

Additional observations from a re-analysis of the deposited data

Results flagged for a closer look

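The ratio of NS to PE signal differed between temperatures by the test of the difference for ST2A, with a log2 difference of 27°C minus 17°C of -2.15, and for XYL4, with -1.52. In ST2A all 3 NS arrays at 27°C were below all 3 at 17°C, and 1 of the 3 PE arrays at 17°C (644) lay within the range of those at 27°C. In XYL4 neither fraction overlapped between temperatures.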

How the results depend on the processing

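The rule gave 258 to 326 members with 1 total RNA array left out, and 446 and 189 with a limit of 1.8 and 2.2 at time 0. Counts of members called are NS between temperatures, PE between temperatures and the NS/PE ratio between temperatures, in this order, with 25, 9 and 2 as reported. Without a trend they were 7, 3 and 0 (0 of 288 for the ratio in either direction). In the reported limma fit, the ratio was higher for 10 members (3.47%, background 13.5%) at an unadjusted p under 0.05. It was lower for 27 (9.38%, background 5.76%). At an adjusted p under 0.05 with no fold limit the counts were 46, 36 and 6. Quantile normalization gave 14 in PE, and all 24 arrays in one fit 14 in PE and 6 for the ratio. The replicate block gave 6 for the ratio and changed no other count by over 1.5 times. With 1 replicate left out, the ranges were 10 to 24, 3 to 8 and 0 to 2. Calls of NS against PE kept within 1.5 times in every alternative, at 129 to 176 with a replicate left out. The median new share was 18.16% at 17°C and 27.0% at 27°C with 1 line per replicate, 24.0% and 30.6% with a line over probe sets of a highest mean of 200 or more, and 20.5 to 23.3% and 31.2 to 33.3% with a replicate left out. The median remainder at 27°C was 34.6% and 33.2% with these lines and 32.04 to 35.6% with a replicate left out, and at 17°C 82.6 to 85.2%. Of 62 comparisons of named genes called, 31 kept their call in every alternative, and no direction was turned. Without detection calls, low signals such as those of GI at 17°C have no lower bound.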
